A study of Mus musculus with 39 samples.

Results

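Kdr, Tek, Tie1, Cd34, Pecam1, Cdh5, Emcn, Gata1, Gata2 and Tal1 are 10 receptors, surface proteins and transcription factors of blood and blood vessel cells. They were taken by symbol as a set of regulators, with no measured level as a criterion though with earlier results of these data known, and each was found in all 5 deposited expression tables, for example as 10 of the 20354 genes of the germ cell induction table. The tables held RNA sequencing of 39 mouse libraries in 14 groups, all labelled strain C57BL6/CBA, from a study that took ovarian granulosa cells through pluripotent lines to germ cells. Levels are FPKM, fragments per kilobase of transcript, scaled to the mapped fragments of a library, so they are per length and can be compared between genes of a library. Every test stayed within 1 table, because the tables were normalized separately.

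In the induction table, E12.5PGC were primordial germ cells of mouse embryos at the day their name gives. The gPSC4-PGCLC and ESC-PGCLC were primordial germ cell-like cells made from EpiLC over 4 days in 1000 IU/ml LIF, 50 ng/ml EGF, 100 ng/ml SCF and BMP4 at 500 ng/ml. The gPSC4-EpiLC and ESC-EpiLC were epiblast-like cells made in 2 days with 1% KSR, bFGF and 2 ng/ml activin A. They came from gPSC4, a single pluripotent line derived from granulosa cells, and from ESC, a female embryonic stem cell line. Each of these 7 groups had 3 libraries. In the reprogramming table, 28D+CA were cells of day 28 that received 7 mM crotonic acid from day 16, 28D were cells of day 28 without it and 16D were cells of day 16, with 2 libraries each. Another table held 6 gPSC lines and 1 granulosa cell library, GC, and the remaining tables held ES, GC and mouse embryonic fibroblast (MEF) libraries. Nothing in the labels said that libraries of a group came from separate cultures or animals, so p-values measured only the spread between these libraries.

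Kdr, Tek and Tie1 encode receptor tyrosine kinases through which vascular endothelial growth factors and angiopoietins act on vessel-lining cells. Cd34, Pecam1, Cdh5 and Emcn encode surface and junction proteins of endothelium, some of which also mark blood progenitors, and Pecam1 is known as a surface protein of mouse pluripotent cells and early germ cells too. Gata1, Gata2 and Tal1 encode DNA-binding factors that work together in blood formation, where Gata2 acts in stem and progenitor cells, Gata1 in red cells and platelet precursors, and Tal1 at the onset of blood formation. In the embryo, germ cells arise beside the first blood-forming mesoderm, and bone morphogenetic protein signals act on both.

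Kdr, Emcn, Gata2, Tie1, Cdh5 and Gata1, but not Pecam1, had at most 1.85 FPKM in every EpiLC library, with higher means in PGCLC and E12.5PGC. Of these genes, the promoters of Kdr, Emcn and Gata2 are shown as examples. Each is the 250 bases before the start site in RefSeq (build GRCm38.p6), written in the direction of the gene, with motif matches in capitals: CAGNTG (the E-box bound by Tal1 with its partners) in Kdr, AGGAAG or CGGAAG (ETS motifs, as read on either strand) in Emcn and no match in Gata2. The Kdr window is chr5:75978456-75978705 on the minus strand, the Emcn window chr3:137340828-137341077 on the plus strand and the Gata2 window chr6:88193641-88193890 on the plus strand.
Kdr: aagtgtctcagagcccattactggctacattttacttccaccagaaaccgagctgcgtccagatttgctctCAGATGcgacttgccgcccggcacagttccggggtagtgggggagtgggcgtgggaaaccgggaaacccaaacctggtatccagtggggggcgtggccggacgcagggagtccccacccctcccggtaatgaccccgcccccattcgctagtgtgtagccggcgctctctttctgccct
Emcn: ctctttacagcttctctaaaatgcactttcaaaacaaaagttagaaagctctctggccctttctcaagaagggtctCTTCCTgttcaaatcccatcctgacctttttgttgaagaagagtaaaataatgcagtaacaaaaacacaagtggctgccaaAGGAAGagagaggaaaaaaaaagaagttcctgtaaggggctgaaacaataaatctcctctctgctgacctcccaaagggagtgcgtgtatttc
Gata2: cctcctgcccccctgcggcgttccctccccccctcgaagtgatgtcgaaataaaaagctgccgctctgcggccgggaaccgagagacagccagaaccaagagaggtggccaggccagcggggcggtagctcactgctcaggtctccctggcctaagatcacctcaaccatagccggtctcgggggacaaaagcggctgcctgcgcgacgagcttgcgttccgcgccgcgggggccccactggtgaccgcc
RefSeq windows were found for 8 of the 10 genes, 10 windows in all, and Pecam1 and Cdh5 had no entry. A search on both strands covered 4 motifs. The GATA motif was searched as AGATAA or as TGATAA, the ETS motif as AGGAAG or as CGGAAG, the E-box as CAGNTG and a motif bound by SMAD proteins as GGCGCC. No match overlapped another motif's match in these windows. GATA matches were present in 16.6% of all 32851 windows of that length, ETS matches in 39.2%, E-box matches in 44.8% and SMAD matches in 9.59%. Among the genes described here, Tal1 had 1 GATA match in 1 of its windows, Cd34 and Gata1 had 1 ETS match each, Tie1 had 2 ETS matches and 1 E-box, and Tek had no match. A second Gata2 window, chr6:88198414-88198663, held 1 SMAD match. A match describes letters only.

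Whole read counts could be recovered from the steps in the induction table's FPKM, which gave 6107895 to 25227634 assigned reads per library; for the other tables the depth is unknown. No pair of replicate libraries agreed within counting noise. Averaged over genes, chi-square came to 6.82 to 31.7 between replicates, 15.6 to 44.3 between libraries of different groups among E12.5PGC, gPSC4-PGCLC and ESC-PGCLC, and 92.3 to 293 between those libraries and the EpiLC or stem cell libraries. The germ cell list set PGCLC and E12.5PGC far apart from EpiLC. None of its 13 genes was called between E12.5PGC and PGCLC or between gPSC4-PGCLC and ESC-PGCLC. The summed levels of E12.5PGC, ESC-PGCLC and gPSC4-PGCLC were nevertheless in that order and did not overlap. Of its 13 genes, 11 were called higher in gPSC4-PGCLC than in gPSC4-EpiLC and 13 in ESC-PGCLC than in ESC-EpiLC, and its summed level was 4197 to 4243 FPKM in E12.5PGC, 3843 to 3888 FPKM in gPSC4-PGCLC, 3914 to 4179 FPKM in ESC-PGCLC and 113 to 145 FPKM in EpiLC. Difference here means a change in log2(FPKM + 1), and a gene was called higher or lower at a limma adjusted p under 0.05 with a difference of at least 1.

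Markers of other cells moved together with the genes described here and are given before their results. Red cell and platelet genes summed to 1593 to 1684 FPKM in E12.5PGC, 1500 to 1611 FPKM in gPSC4-PGCLC and 1617 to 2133 FPKM in ESC-PGCLC, against 6.23 to 9.50 FPKM in EpiLC and 3.53 to 6.81 FPKM in stem cells. Of its 17 genes tested, 15 were called higher in PGCLC than in EpiLC for either origin. Gp9, a platelet protein, was at 0 in all stem cell libraries. Genes of the fetal gonad soma summed to 207 to 218 FPKM in E12.5PGC, 171 to 196 FPKM in gPSC4-PGCLC and 174 to 199 FPKM in ESC-PGCLC, against 37.4 to 52.2 FPKM in EpiLC and 6.65 to 10.8 FPKM in stem cells. White cell genes were at 77.6 to 109 FPKM in E12.5PGC, 83.76 to 101.4 FPKM in gPSC4-PGCLC, 94.1 to 125 FPKM in ESC-PGCLC, 65.3 to 104 FPKM in EpiLC and 627 to 684 FPKM in stem cells. Gene by gene, 7 of 13 tested were called higher and 2 lower in ESC-PGCLC against ESC-EpiLC, beside 16.7% and 12.7% of all genes. For gPSC4, 8 were called higher and 2 lower, beside 15.8% and 13.9%. The medians of the list were 2.30 and 1.59, beside 0.10 and 0.08 over all genes. Red cell and gonad soma RNA at the level of embryonic germ cell libraries is not part of what the labels describe for PGCLC made in culture. Whether the libraries hold cells from another source than their labels say was not tested, nor was the part of these markers in the results, and in bulk RNA fewer cells of a type and less RNA per cell cannot be told apart.

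PGCLC held much more Gata2, Pecam1, Kdr and Emcn RNA than the EpiLC they were made from, whether the cells came from gPSC4 or from ESC. In ESC-PGCLC, 5 of 10 were called higher (Kdr, Pecam1, Emcn, Gata1 and Gata2) and 2 lower (Cd34 and Tal1), where 16.7% of the 14059 genes tested were called higher and 12.7% lower. In gPSC4-PGCLC, 7 of 10 were called higher (the same 5 with Tie1 and Cdh5) and none lower, where 15.8% of all genes were called higher and 13.9% lower. The filter for testing was 1 FPKM in at least 3 libraries. Kdr, Tie1, Cdh5, Emcn and Gata1 stayed below 1 FPKM in EpiLC and stem cells and passed it only through PGCLC and E12.5PGC libraries. That favoured higher calls of these 5, and Tal1, which needed EpiLC libraries to pass, was favoured for lower ones. The shares of all genes are thus not a like contrast. The median difference of the 10 genes was 1.04 in ESC-PGCLC against ESC-EpiLC and 1.44 in gPSC4-PGCLC against gPSC4-EpiLC, beside 0.10 and 0.08 over all genes. With Cdh5 and Emcn, which had no read in EpiLC, set to the smallest fold that 3 reads allow, the medians were 1.77 and 2.00. These last medians mix scales, since the other genes kept log2(FPKM + 1), and are not comparable with the medians over all genes.

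**Figure D1:**
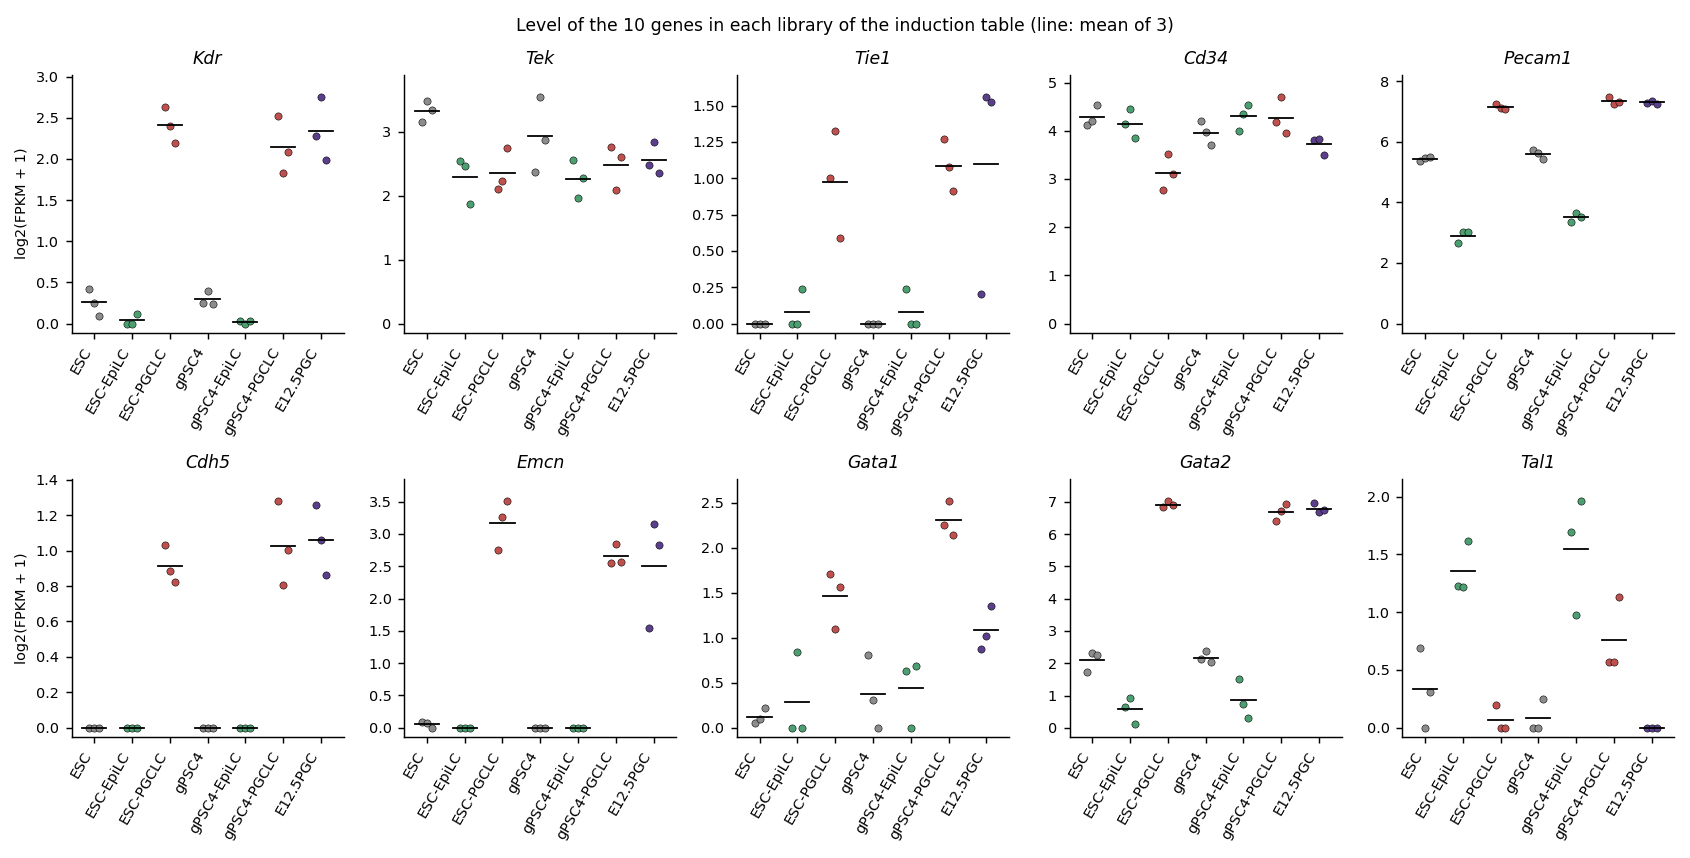
FPKM of each gene (vertical axis, log2(FPKM + 1) scale) in every library of the induction table, by stage from stem cells through EpiLC and PGCLC to E12.5PGC; points are libraries and lines are group means. Gata2 lies at 84.7 FPKM or more in every PGCLC and PGC library, while Tek and Cd34 spread across all stages.

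Among the receptors, Kdr (chr5:75932827-75978458, minus strand, GRCm38), the main receptor for vascular endothelial growth factor, changed most. It had 3.84, 5.73 and 2.96 FPKM in E12.5PGC, 4.76, 2.56 and 3.26 FPKM in gPSC4-PGCLC and 5.20, 4.28 and 3.59 FPKM in ESC-PGCLC, against 0.019, 0 and 0.0209 FPKM in gPSC4-EpiLC and 0, 0 and 0.0849 FPKM in ESC-EpiLC. All 9 germ cell and PGCLC libraries lay above all EpiLC libraries, and above the stem cells, where the highest of 6 libraries had 0.340 FPKM. The difference in ESC-PGCLC against ESC-EpiLC was 2.37 ± 0.22 (SE, n = 3 each, limma adjusted p = 2.48e-08), and in gPSC4-PGCLC against gPSC4-EpiLC it was 2.13 ± 0.22 (limma adjusted p = 1.16e-07). The recovered reads behind these levels were 624 in E12.5PGC, 616 in gPSC4-PGCLC and 571 in ESC-PGCLC, with 2 in gPSC4-EpiLC and 5 in ESC-EpiLC.

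Tie1, an orphan receptor that partners Tek, was low even where it was higher. It had 0.152, 1.95 and 1.88 FPKM in E12.5PGC, 1.41, 1.11 and 0.879 FPKM in gPSC4-PGCLC and 0.998, 1.51 and 0.505 FPKM in ESC-PGCLC, against at most 0.181 FPKM in any EpiLC library and no read in any of the 6 stem cell libraries. One E12.5PGC library lay within the EpiLC range, and the other two lay above every PGCLC library. Tie1 was called in gPSC4-PGCLC against gPSC4-EpiLC (1.00 ± 0.28, SE, n = 3 each, limma adjusted p = 0.00514). In ESC-PGCLC against ESC-EpiLC its difference of 0.89 had a limma adjusted p of 0.0114 but was below the minimum of 1, whereas with a pseudocount of 0.1 it was 2.86 and called (limma adjusted p = 0.00289). Against gPSC4, where 3 reads over the group set the limit, Tie1 was at least 47.4-fold higher in gPSC4-PGCLC, and against ESC at least 71.5-fold higher in ESC-PGCLC. The gPSC4-PGCLC call was lost without gPSC4-PGCLC library 1 (0.91), gPSC4-EpiLC library 2 (0.97) or gPSC4-EpiLC library 3 (0.97), and under median-ratio scaling (0.96) and quantile normalization (0.95).

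Tek, the angiopoietin receptor, did not follow the other receptors. Its levels were 4.56, 6.14 and 4.14 FPKM in E12.5PGC, 5.76, 3.24 and 5.09 FPKM in gPSC4-PGCLC, 3.30, 3.68 and 5.72 FPKM in ESC-PGCLC, 4.91, 2.92 and 3.82 FPKM in gPSC4-EpiLC and 4.81, 4.50 and 2.64 FPKM in ESC-EpiLC. These 5 groups overlapped. The difference was 0.22 (95% interval -0.39 to 0.82) in gPSC4-PGCLC against gPSC4-EpiLC and 0.07 (95% interval -0.53 to 0.68) in ESC-PGCLC against ESC-EpiLC. Tek fell in ESC-EpiLC against ESC, where the 3 ESC libraries had 7.88, 10.2 and 9.16 FPKM (difference -1.04 ± 0.29, SE, n = 3 each, limma adjusted p = 0.00616). That call was lost without ESC-EpiLC library 3 (-0.83), without 1 of the ESC libraries (-0.96) and under quantile normalization (-0.95). In gPSC4-EpiLC against gPSC4, with 4.18, 10.6 and 6.34 FPKM in gPSC4, the difference was -0.66 and was not called (limma adjusted p = 0.0696).

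Among the surface and junction genes, Pecam1 (chr11:106654217-106750628, minus strand), which encodes the adhesion molecule CD31, was the most abundant in germ cell libraries and followed a valley-shaped course. It had 156, 161 and 152 FPKM in E12.5PGC, 176, 152 and 157 FPKM in gPSC4-PGCLC and 150, 138 and 135 FPKM in ESC-PGCLC, against 9.13, 11.5 and 10.5 FPKM in gPSC4-EpiLC and 5.33, 7.17 and 7.10 FPKM in ESC-EpiLC. Stem cells lay between, with 51.3, 48.1 and 41.7 FPKM in gPSC4 and 39.7, 43.4 and 44.3 FPKM in ESC. The levels of these 3 stages did not overlap. Pecam1 fell in EpiLC against stem cells, by 2.54 on the log2 scale for ESC (limma adjusted p = 7.25e-13) and by 2.08 for gPSC4 (limma adjusted p = 1.62e-11). It rose in ESC-PGCLC against ESC-EpiLC by 4.25 ± 0.11 (SE, limma adjusted p = 1.74e-16) and in gPSC4-PGCLC against gPSC4-EpiLC by 3.84 ± 0.11 (limma adjusted p = 8.68e-16). In PGCLC it stood above its level in the original stem cells, by 1.71 for ESC and 1.76 for gPSC4.

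Emcn, the sialoprotein endomucin of venous and capillary endothelium, had a pattern like that of Kdr, at a low level. It had 1.91, 7.90 and 6.13 FPKM in E12.5PGC, 4.84, 6.17 and 4.94 FPKM in gPSC4-PGCLC and 5.75, 8.59 and 10.3 FPKM in ESC-PGCLC, and no read in any EpiLC or gPSC4 library. The highest ESC library had 0.0651 FPKM, so the groups did not overlap. Emcn was at least 63.05-fold higher in ESC-PGCLC than in ESC-EpiLC and at least 47.0-fold higher in gPSC4-PGCLC than in gPSC4-EpiLC, counting 3 reads over the group as the limit (limma adjusted p = 2.2e-08 and 2.73e-07).

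Cdh5, the VE-cadherin of endothelial junctions, was the weakest of these signals. Its levels were 1.39, 1.08 and 0.817 FPKM in E12.5PGC, 1.42, 0.748 and 1.00 FPKM in gPSC4-PGCLC and 1.04, 0.846 and 0.767 FPKM in ESC-PGCLC, from 104, 108 and 68 reads in those groups, and it had no read in all 12 EpiLC and stem cell libraries. The groups did not overlap. It was at least 29.5-fold higher in gPSC4-PGCLC than in gPSC4-EpiLC (difference 1.03 ± 0.18, SE, limma adjusted p = 6.3e-05). In ESC-PGCLC it was at least 21.65-fold higher than in ESC-EpiLC, with a difference of 0.91 that was below the minimum of 1 (limma adjusted p = 0.000218). With a pseudocount of 0.1 in place of 1, that difference was 3.29 and Cdh5 was called (limma adjusted p = 6e-06). The gPSC4-PGCLC call was lost without gPSC4-PGCLC library 1 (0.90), under median-ratio scaling (0.99) and under quantile normalization (0.95).

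Cd34, a sialomucin of blood progenitors and small vessels, was called lower in PGCLC for the ESC origin, and the test of the step between origins was not called (0.99, limma adjusted p = 0.252). It had 13.1, 13.3 and 10.3 FPKM in E12.5PGC, 17.1, 24.9 and 14.4 FPKM in gPSC4-PGCLC and 5.79, 10.4 and 7.65 FPKM in ESC-PGCLC. EpiLC had 15.01, 19.4 and 22.2 FPKM when made from gPSC4 and 16.6, 20.8 and 13.4 FPKM when made from ESC, and the 6 stem cell libraries had 12.04 to 22.2 FPKM. The ESC-PGCLC libraries were the lowest, and only 1 library of another group, an E12.5PGC one, lay within their range. Cd34 fell in ESC-PGCLC against ESC-EpiLC (-1.01 ± 0.23, SE, n = 3 each, limma adjusted p = 0.000904) and against ESC (-1.16 ± 0.23, limma adjusted p = 0.000246), while gPSC4-PGCLC differed from gPSC4-EpiLC by -0.02 (95% interval -0.51 to 0.46). The fall against ESC-EpiLC was not called without ESC-PGCLC library 1 (-0.83) or ESC-EpiLC library 2 (-0.86), and the fall against ESC was not called without ESC-PGCLC library 1 (-0.97).

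Among the transcription factors, Gata2 (chr6:88193891-88207032, plus strand) had the largest difference of the 10 genes in log2(FPKM + 1) in PGCLC against EpiLC, for either origin; with voom on recovered reads Kdr was ahead of it for gPSC4 (7.25, with 7.14 for Gata2). It had 123, 102 and 106 FPKM in E12.5PGC, 84.7, 105 and 121 FPKM in gPSC4-PGCLC and 114, 128 and 118 FPKM in ESC-PGCLC, against 1.85, 0.664 and 0.233 FPKM in gPSC4-EpiLC and 0.564, 0.911 and 0.0947 FPKM in ESC-EpiLC. No PGCLC or E12.5PGC library overlapped the EpiLC libraries or the stem cell libraries, which were at 2.28 to 4.16 FPKM. The difference was 6.35 ± 0.26 in ESC-PGCLC against ESC-EpiLC (SE, n = 3 each, limma adjusted p = 8.8e-14) and 5.84 ± 0.26 in gPSC4-PGCLC against gPSC4-EpiLC (limma adjusted p = 3.6e-13). Like Pecam1, Gata2 fell in EpiLC against stem cells, by 1.52 for ESC (limma adjusted p = 7.4e-05) and by 1.33 for gPSC4 (limma adjusted p = 0.000302).

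Gata1, the factor of red cells and platelet precursors, was low in all groups and highest in gPSC4-PGCLC. It had 0.829, 1.03 and 1.55 FPKM in E12.5PGC, 3.76, 4.70 and 3.41 FPKM in gPSC4-PGCLC and 2.26, 1.15 and 1.96 FPKM in ESC-PGCLC, against 0.554, 0 and 0.609 FPKM in gPSC4-EpiLC and 0, 0.794 and 0 FPKM in ESC-EpiLC. Each of those 3 groups lay above every EpiLC library and every stem cell library, the highest of which had 0.754 FPKM. The difference was 1.86 ± 0.28 in gPSC4-PGCLC against gPSC4-EpiLC (SE, limma adjusted p = 1.13e-05) and 1.18 ± 0.28 in ESC-PGCLC against ESC-EpiLC (limma adjusted p = 0.00128).

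Tal1 ran the other way and was highest in EpiLC. It had no read in E12.5PGC, 0.483, 0.484 and 1.19 FPKM in gPSC4-PGCLC and 0.146, 0 and 0 FPKM in ESC-PGCLC, against 2.24, 0.968 and 2.88 FPKM in gPSC4-EpiLC and 1.33, 1.33 and 2.07 FPKM in ESC-EpiLC. The gPSC4-PGCLC and gPSC4-EpiLC libraries overlapped, and the ESC-PGCLC libraries lay below all ESC-EpiLC libraries. Against gPSC4, Tal1 was higher in every gPSC4-PGCLC library, with a difference of 0.67 that was below the minimum of 1 (limma adjusted p = 0.0292). Tal1 fell in ESC-PGCLC against ESC-EpiLC (-1.29 ± 0.25, SE, limma adjusted p = 0.00023), and its difference of -0.79 in gPSC4-PGCLC against gPSC4-EpiLC was below the minimum of 1 (limma adjusted p = 0.0122). It rose in gPSC4-EpiLC against gPSC4 (1.46 ± 0.25, limma adjusted p = 9.36e-05) and in ESC-EpiLC against ESC (1.02 ± 0.25, limma adjusted p = 0.00268). The ESC-EpiLC call was lost without ESC-EpiLC library 3 (0.89) and without 1 of the ESC libraries (0.85). At 51 reads in ESC-EpiLC and 72 in gPSC4-EpiLC, these levels rested on few reads.

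Set against the stem cells, 7 of 10 genes were called higher in gPSC4-PGCLC than in gPSC4, where 15.2% of all genes were, and none lower, where 13.6% were. In ESC-PGCLC against ESC, 5 of 10 were called higher and Cd34 lower, beside 16% and 14.6% of all genes. With a pseudocount of 0.1 Tie1 (3.35) and Cdh5 (3.29) were called there too, so the gap between 5 and 7 depends on the pseudocount and the minimum difference. That pseudocount also called Tek lower there (-1.11, limma adjusted p = 0.0108) and Tal1 higher in gPSC4-PGCLC against gPSC4 (2.42, limma adjusted p = 0.00626). In the main fit the largest difference against stem cells was that of Gata2, 4.51 in gPSC4-PGCLC against gPSC4 and 4.83 in ESC-PGCLC against ESC. The gPSC4-PGCLC calls of Tie1 (0.99) and Cdh5 (0.90) were lost without gPSC4-PGCLC library 1, and that of Cdh5 under median-ratio scaling (0.99) and quantile normalization (0.95). Tek in ESC-PGCLC against ESC, at -0.97, was below the minimum of 1 but was called under median-ratio scaling (-1.04) and quantile normalization (-1.06). In EpiLC against stem cells, 1 of 10 was called higher and 3 lower for ESC, where 9.64% and 11.3% of all genes were, and 1 higher and 2 lower for gPSC4, where 10.1% and 10.3% were. The same libraries of PGCLC, EpiLC and stem cells served several of these comparisons. The limit that the filter sets on the counts against EpiLC applies to those of PGCLC against stem cells too. In EpiLC against stem cells, Kdr, Tie1, Cdh5, Emcn and Gata1 were below 1 FPKM on both sides. A difference of 1 in log2(FPKM + 1) was therefore out of reach for these 5, and Tal1 was favoured for higher calls. The shares of all genes are not a like contrast there either.

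**Figure D2:**
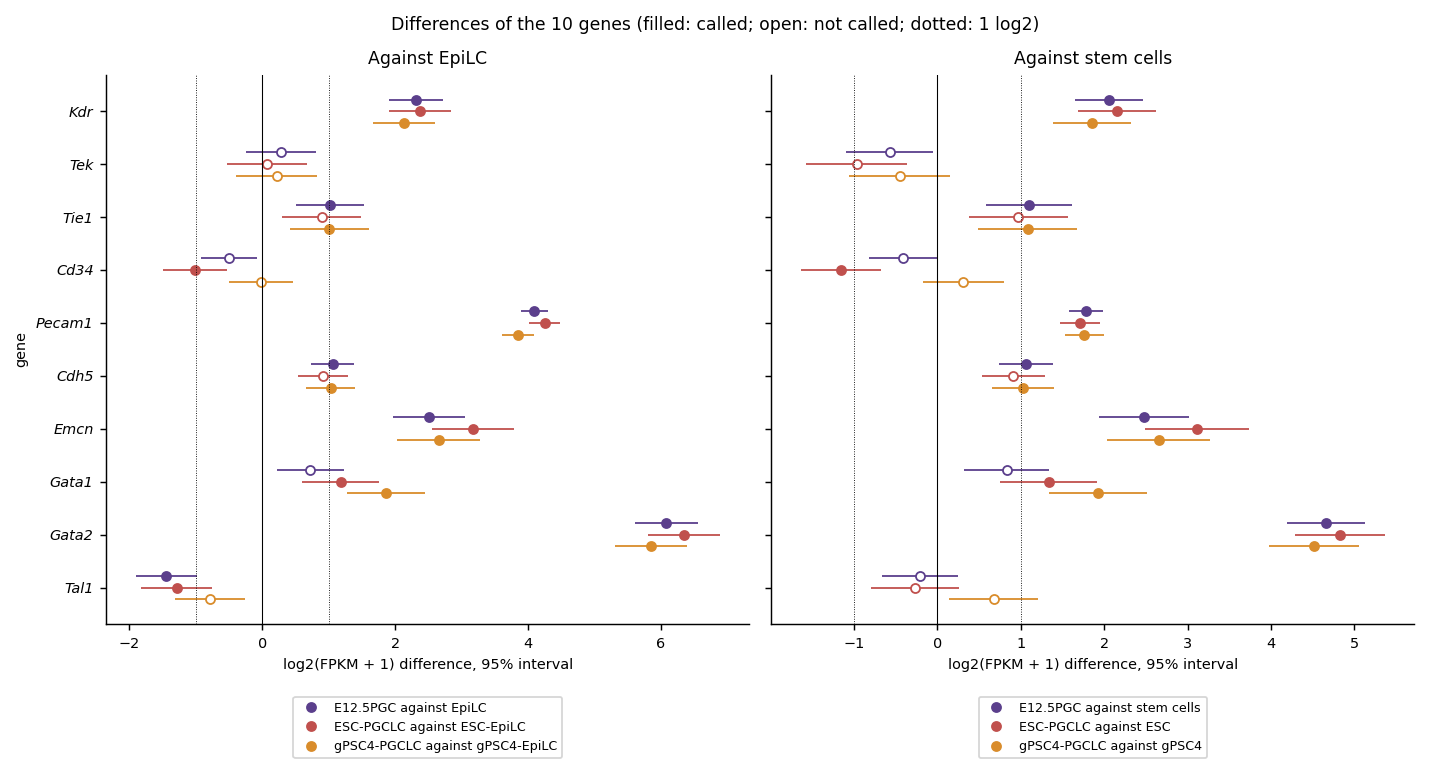
Difference in log2(FPKM + 1) of each gene in E12.5PGC, ESC-PGCLC and gPSC4-PGCLC against EpiLC (left) and against stem cells (right), with 95% intervals; filled points were called. Gata2 and Pecam1 lie farthest to the right against EpiLC, Tek and Cd34 lie around or below 0, and Tal1 lies below 0 against EpiLC.

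E12.5PGC had the same genes called as higher against EpiLC as against stem cells: Kdr, Tie1, Pecam1, Cdh5, Emcn and Gata2. That was 6 of 10 in either case, beside 16.5% of all genes in either case, and Tal1 was called lower against EpiLC, where 13.8% of all genes were. Here too the filter favoured the calls of Kdr, Tie1, Cdh5, Emcn and Tal1. Against EpiLC the differences were 6.08 for Gata2, 4.09 for Pecam1, 2.51 for Emcn and 2.31 for Kdr (limma adjusted p at most 5.78e-08, n = 3 against 6). The Gata1 difference of 0.72 was below the minimum of 1 (limma adjusted p = 0.0139), and with a pseudocount of 0.1 it was 2.13 and called (limma adjusted p = 0.0207). Tie1 was lost against EpiLC without E12.5PGC library 2 (0.78) or library 3 (0.80), without any 1 of 4 EpiLC libraries in which it had no read (0.996 in each case), and under median-ratio scaling (0.98) and quantile normalization (0.99). Against stem cells Tie1 was lost without E12.5PGC library 2 (0.86) or 3 (0.88). Cdh5 was lost in both comparisons without E12.5PGC library 1 (0.96) and under quantile normalization (0.98).

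Against the mean of both PGCLC origins, none of the 10 genes was called in E12.5PGC, where 0.441% of all genes, 62 of 14059, were called by limma. Neither origin was tested alone, and averaging can hide a gap in 1 origin. Every gPSC4-PGCLC library lay above every E12.5PGC library for Gata1 (3.41 to 4.70 FPKM, against 0.829 to 1.55), Cd34 (14.4 to 24.9, against 10.3 to 13.3) and Tal1 (0.483 to 1.19, against 0). Every ESC-PGCLC library lay below every E12.5PGC library for Pecam1 (135 to 150 FPKM, against 152 to 161). At an unadjusted p under 0.05 there was 1, Gata1, at 1.13 ± 0.37 FPKM in E12.5PGC and 2.87 ± 1.31 FPKM in PGCLC (SD, n = 3 and 6; difference -0.80, 95% interval -1.30 to -0.30, limma adjusted p = 0.13), and voom on the recovered reads also called none. For Gata2 the difference was -0.02 (95% interval -0.48 to 0.45) and for Pecam1 it was 0.05 (95% interval -0.16 to 0.25). Intervals for Kdr (-0.35 to 0.46), Tek (-0.39 to 0.66) and Cdh5 (-0.24 to 0.41) also left out a difference of 1 in either direction, and that of Emcn ran between -0.94 and 0.13.

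Between gPSC4-PGCLC and ESC-PGCLC, Cd34 was the single gene of the 10 called, at 18.8 ± 5.47 FPKM in gPSC4-PGCLC and 7.96 ± 2.33 FPKM in ESC-PGCLC (SD, n = 3 each). Its difference was 1.14 ± 0.23 (SE, limma adjusted p = 0.0313), and 0.0925% of all genes were called higher and 0.22% lower. The call was lost in a fit of these 2 groups alone (adjusted p = 0.588), with voom on recovered reads (adjusted p = 0.062), and without ESC-PGCLC library 1 (0.96) or 3 (1.13) or gPSC4-PGCLC library 1 (1.19) or 2 (0.93). Gata1 and Tal1 were also higher in every gPSC4-PGCLC library than in every ESC-PGCLC library, with differences of 0.84 (limma adjusted p = 0.168) and 0.69 (limma adjusted p = 0.217). The step between EpiLC and PGCLC was not called different between origins for any of the 10 genes, where 0.0854% of all genes, 12 in number, were called. At an unadjusted p under 0.05 there were 2, Cd34 (0.99, 95% interval 0.31 to 1.67, limma adjusted p = 0.252) and Pecam1 (-0.40, limma adjusted p = 0.344), and voom on the recovered reads called none.

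Other vascular and blood genes were measured in the same comparisons. For the counts that follow, 16.7% of all genes were called higher and 12.7% lower for ESC, and 15.8% and 13.9% for gPSC4, with all-gene medians of 0.10 and 0.08. Of 15 vascular ligands and receptors tested, 3 were called higher and 1 lower for either origin, shares near these backgrounds; the apelin receptor gene Aplnr averaged 17.7 FPKM in ESC-PGCLC and 0.0401 FPKM in ESC-EpiLC (difference 4.16), and S1pr1, a sphingosine phosphate receptor, averaged 3.47 FPKM in ESC-PGCLC and 0.178 FPKM in ESC-EpiLC. Of 17 endothelial surface and junction genes, 6 were called higher and 1 lower for ESC, and 6 higher and 2 lower for gPSC4. Esam, a junction adhesion molecule, averaged 14.0 FPKM in ESC-PGCLC and 1.00 FPKM in ESC-EpiLC, while Egfl7, a secreted endothelial protein, fell to 26.8 FPKM in ESC-PGCLC, against 105 FPKM in ESC-EpiLC. Of 24 blood and endothelial transcription factors, 8 were called higher and 2 lower for ESC, and 8 higher and 3 lower for gPSC4. Ets1 averaged 53.2 FPKM in ESC-PGCLC and 4.55 FPKM in ESC-EpiLC, and Etv2, a factor at the head of vessel and blood development, fell to 0.179 FPKM in ESC-PGCLC, against 5.36 FPKM in ESC-EpiLC. The medians of these 3 lists were 0.60, 0.17 and 0.72 for ESC and 0.69, 0.30 and 0.46 for gPSC4. Of the 8 BMP targets tested, 7 were called higher in ESC-PGCLC and 6 in gPSC4-PGCLC; Id1, a transcription inhibitor, averaged 194 FPKM in ESC-PGCLC and 1.74 FPKM in ESC-EpiLC.

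**Figure D3:**
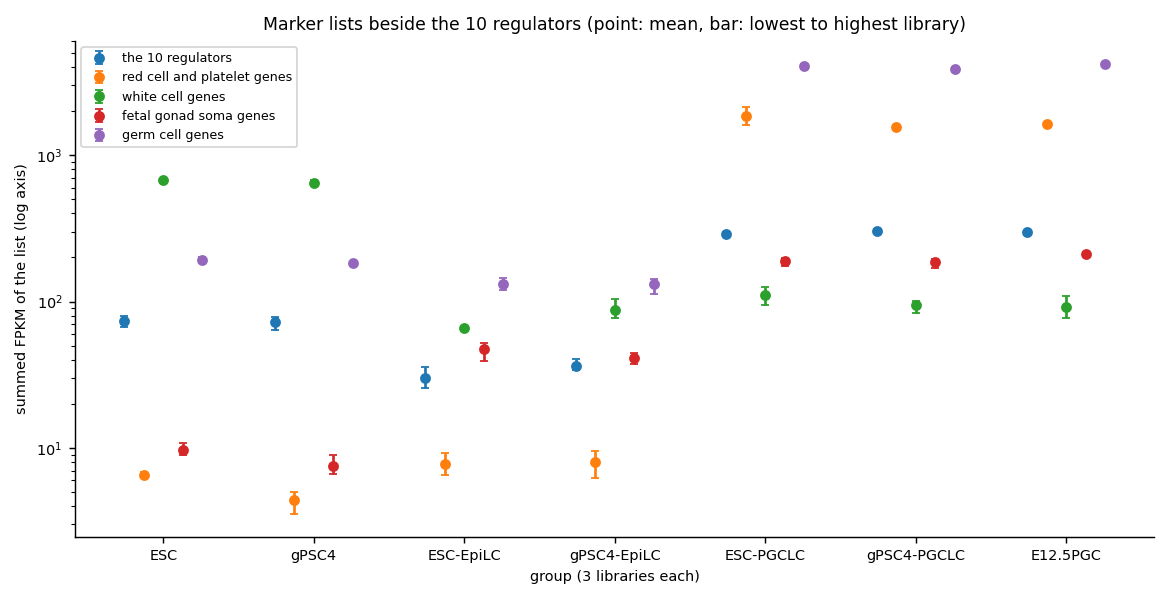
Summed FPKM (log axis) of the genes described here and of marker lists in each group of the induction table; points are means of 3 libraries and bars run between the lowest and highest library. The 10 genes sum to 284 to 312 FPKM in PGCLC and E12.5PGC and to 25.5 to 40.3 FPKM in EpiLC, and the red cell list to at least 1500 FPKM in PGCLC and E12.5PGC and at most 9.50 FPKM in EpiLC.

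Across the 21 libraries of the induction table, Kdr and Cdh5 had a Pearson correlation of 0.977 in log2(FPKM + 1), Kdr and Gata2 0.968 and Kdr and Emcn 0.954. Tek had -0.38 to 0.13 with the other genes. The genes most like each one were Cenpf, Hbb-bs and Rhox2h for Kdr (0.986, 0.985 and 0.983), M1ap, Mfge8 and Xrn2 for Pecam1 (0.995, 0.994 and 0.992) and Pdxdc1, Ap3b2 and Fos for Gata2 (0.994, 0.993 and 0.993). For Cdh5 they were Rhox2f, Ppbp and 3830403N18Rik (0.983 each), for Emcn Rhox4g, Rhox2d and Hes5 (0.983, 0.979 and 0.978) and for Gata1 Vps13a, Tex15 and Prex1 (0.930, 0.900 and 0.897). For Tal1 they were Ndp, Pus7 and Rtn4rl2 (0.921, 0.912 and 0.908), for Tie1 Slitrk1, Sprr2a3 and Bard1 (0.941, 0.933 and 0.926), for Cd34 Micall1, 1700088E04Rik and Arfgap2 (0.866, 0.795 and 0.795) and for Tek Vwf, Havcr2 and Sprr2b (0.854, 0.822 and 0.817). These are descriptions over libraries that fall into stages, so any gene that differs between PGCLC and earlier stages reaches a high value. Reads of the Rhox, Sprr2 and globin families can be shared between near-identical copies, and their values are uncertain.

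In the reprogramming table, 5 of the 10 genes passed the filter of 1 FPKM in at least 2 libraries (Kdr, Cd34, Cdh5, Gata1 and Gata2). Tek and Pecam1 stayed at or below 0.71 FPKM and Tie1, Emcn and Tal1 at or below 0.38 FPKM in all 6 libraries, so these 5 genes were near 0 there. Other endothelial genes were measured, such as Esam at 30.33 to 54.81 FPKM and Ptprb, a receptor phosphatase that acts on Tek, at 18.85 to 59.21 FPKM, both chosen after their values were seen. In 28D against 16D, 2 of 5 were called higher and none lower, where 4.51% of the 13266 genes tested were called higher and 0.829% lower. One of these, Gata1, was below 1 FPKM in 16D and passed the filter only through the day 28 libraries. In 28D+CA against 28D, 2 of 5 were called lower and none higher, where 1.2% were called lower and 0.852% higher. Both comparisons use the same 28D libraries.

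Kdr had 3.42 and 3.87 FPKM in 28D+CA, 9.39 and 11.3 FPKM in 28D and 2.80 and 5.48 FPKM in 16D. Both 28D libraries were above all others, and 28D+CA and 16D overlapped. Kdr rose in 28D against 16D (1.19 ± 0.25, SE, n = 2 each, limma adjusted p = 0.0235) and fell in 28D+CA against 28D (-1.28 ± 0.25, limma adjusted p = 0.037). The rise was lost without 16D library 1 (0.80), 28D library 1 (1.31) or 28D library 2 (1.07), with no filter (limma adjusted p = 0.0541), in a fit of the compared groups alone (limma adjusted p = 0.059) and under quantile normalization (difference 0.92). The fall was lost without any 1 of its 4 libraries (-1.41 to -1.16, limma adjusted p up to 0.248), with a pseudocount of 0.1 (limma adjusted p = 0.0511) and with no filter (limma adjusted p = 0.0831).

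Gata1 had 2.48 and 2.29 FPKM in 28D+CA, 3.19 and 2.27 FPKM in 28D and 0.69 and 0.81 FPKM in 16D. The 16D libraries were the lowest, and 28D+CA and 28D overlapped. Gata1 rose in 28D against 16D (1.08 ± 0.15, SE, n = 2 each, limma adjusted p = 0.00621), a call that was lost without 28D library 1 (0.90), under median-ratio scaling (0.97) and under quantile normalization (0.73). In 28D+CA against 28D its difference was -0.13 (95% interval -0.50 to 0.24).

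Cd34 had 4.10 and 4.29 FPKM in 28D+CA, 8.90 and 18.98 FPKM in 28D and 15.33 and 17.65 FPKM in 16D. Both 28D+CA libraries were below the rest, and the 28D libraries differed from each other more than the 16D libraries did. Cd34 fell in 28D+CA against 28D (-1.44 ± 0.31, SE, n = 2 each, limma adjusted p = 0.0481). That call was lost without 28D+CA library 1 (-1.41), 28D+CA library 2 (-1.46) or 28D library 2 (-0.93), and its limma adjusted p was 0.05 to 0.0996 with a pseudocount of 0.1, no filter, median-ratio scaling or no trend. In 28D against 16D the difference was -0.31 (95% interval -1.06 to 0.44).

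Gata2 had 11.1 and 12.07 FPKM in 28D+CA, 10.2 and 9.74 FPKM in 28D and 9.07 and 10.01 FPKM in 16D. It was the most even of the 5, with differences of 0.20 (95% interval -0.05 to 0.45) in 28D+CA against 28D and 0.06 (95% interval -0.19 to 0.31) in 28D against 16D. Cdh5 had 0.29 and 0.89 FPKM in 28D+CA, 1.51 and 1.11 FPKM in 28D and 1.03 and 1.16 FPKM in 16D, and its difference of -0.56 in 28D+CA against 28D was not called (limma adjusted p = 0.181).

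**Figure D4:**
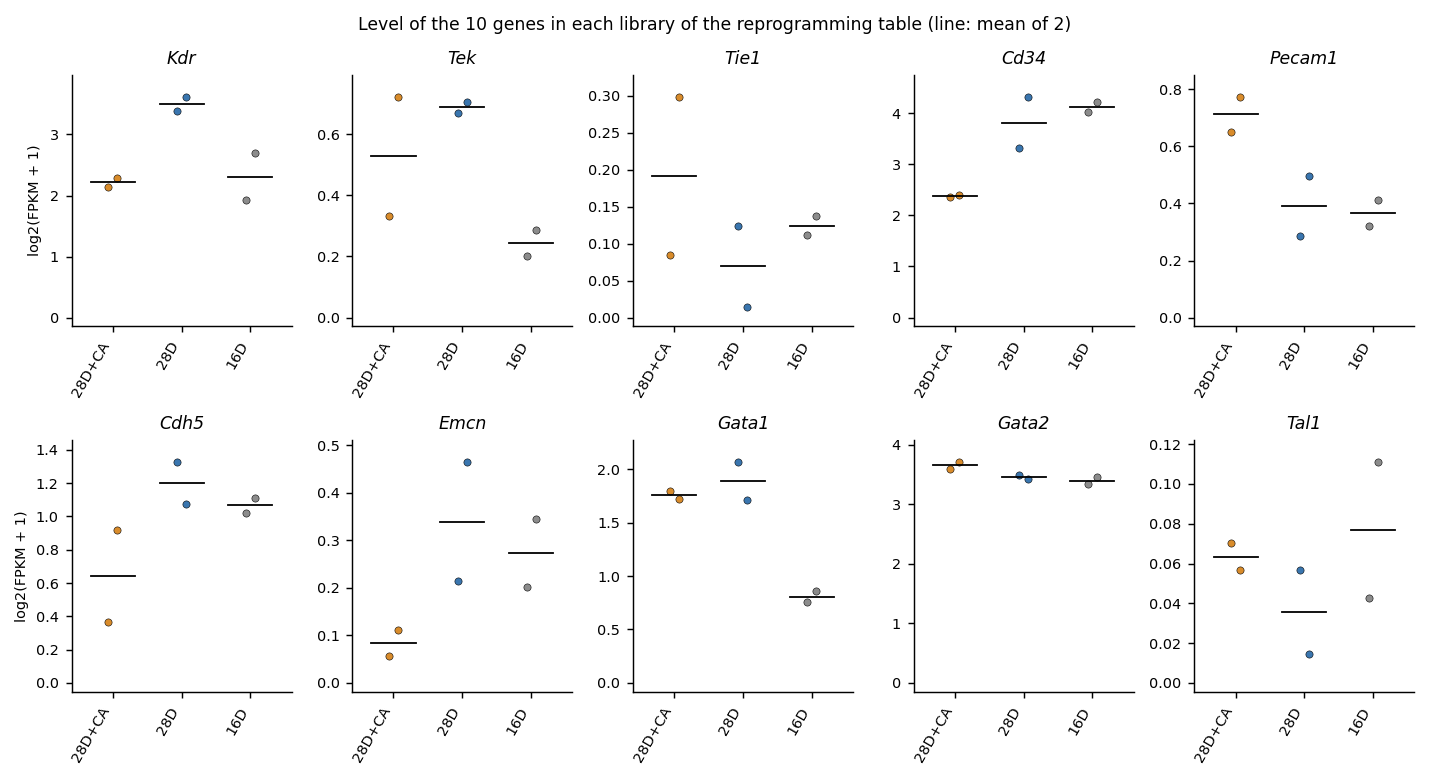
FPKM of each gene (vertical axis, log2(FPKM + 1) scale) in the 2 libraries each of 28D+CA, 28D and 16D; points are libraries and lines are group means. Kdr is highest in 28D, Cd34 lowest in 28D+CA and Gata1 lowest in 16D, while Gata2 stays between 9.07 and 12.07 FPKM.

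Other vascular genes in this table included Flt1, a second receptor for vascular endothelial growth factor, with 1.98 to 2.78 FPKM in 28D+CA, 8.89 to 9.30 FPKM in 28D and 0.60 to 1.20 FPKM in 16D. It rose in 28D against 16D (2.43 ± 0.19, SE, limma adjusted p = 0.0012) and fell in 28D+CA against 28D (-1.59 ± 0.19, limma adjusted p = 0.011). Sox7 and Sox17, factors of endothelium and of extraembryonic endoderm, had the same course: Sox17 averaged 9.98 FPKM in 28D+CA, 26.6 FPKM in 28D and 6.33 FPKM in 16D, and Sox7 averaged 2.51 FPKM in 28D+CA, 11.4 FPKM in 28D and 1.48 FPKM in 16D. In 28D against 16D, 3 of 12 vascular ligands and receptors, 2 of 14 surface genes and 3 of 15 factors were called higher, and none, 1 and 1 of them lower. In 28D+CA against 28D, 1, none and 2 were called lower and none higher. Their medians were 0.35, 0.30 and 0.20 in 28D against 16D, beside 0.15 over all genes, and -0.13, -0.26 and -0.13 in 28D+CA against 28D, beside -0.05. Median-ratio scaling moved the all-gene median of 28D against 16D to -0.02, and its split of calls was 598 higher and 110 lower before and 451 and 190 after.

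Other cell markers also moved in this table. The fibroblast list summed to 911 to 938 FPKM in 28D+CA, 1340 to 1397 FPKM in 28D and 1034 to 1070 FPKM in 16D, and the granulosa cell list to 1068 to 1103 FPKM in 28D+CA, 844 to 887 FPKM in 28D and 1667 to 1742 FPKM in 16D. Red cell and platelet genes summed to 26.24 to 30.36 FPKM in 28D+CA, 21.8 to 24.5 FPKM in 28D and 33.45 to 57.55 FPKM in 16D. Of the 18 genes, 6, 6 and 4 averaged at least 1 FPKM in these groups, and 4, 6 and 5 were at 0. The beta-globins Hbb-bs and Hbb-bt were at 0 in all 6 libraries. White cell genes summed to 57.7 to 63.1 FPKM in 28D+CA, 36.45 to 38.1 FPKM in 28D and 22.3 to 31.8 FPKM in 16D. Of the 14 genes, 3, 2 and 3 averaged at least 1 FPKM in these groups, and 1, 3 and 1 were at 0. Tyrobp, an adaptor of white cell receptors, was at 0 in all 6 libraries. Pluripotency genes summed to 175.4 to 175.6 FPKM in 28D+CA, 113 to 115 FPKM in 28D and 71.9 to 82.7 FPKM in 16D, and 5 of 12 were called higher in 28D+CA against 28D. Their part in the results on Kdr, Cd34 and Gata1 was not tested.

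In the 6 gPSC lines, 5 of the 10 genes passed the filter, and 3 were called higher than in GC (Tek, Cd34 and Pecam1) and none lower, where 21.8% of the 13797 genes tested were called higher and 17.7% lower. Each of the 10 genes had at most 0.92 FPKM in GC, so those tested passed the filter only through the lines. No lower call was therefore possible and higher calls were favoured, so the shares of all genes are not a like contrast. GC was 1 library, assumed in the fit to vary like the lines, and the p-values given here rest on that assumption. Pecam1 had a lowest, median and highest level of 9.73, 13.5 and 20.1 FPKM in the lines, against 0.73 FPKM in GC, and every line lay above GC (difference 3.04 ± 0.33, SE, limma adjusted p = 8.88e-05). Tek had 2.13, 2.985 and 3.67 FPKM in the lines, against 0.16 FPKM in GC (1.75 ± 0.20, limma adjusted p = 0.000116), and Cd34 had 3.25, 3.47 and 6.09 FPKM in the lines, against 0.92 FPKM in GC (1.38 ± 0.30, limma adjusted p = 0.00368). These calls held without any 1 line.

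Gata2 was at 1.01 to 1.56 FPKM in the lines, against 0.18 FPKM in GC, with a difference of 0.88 below the minimum (limma adjusted p = 0.00103). Tie1 was at 0.33 to 1.23 FPKM in the lines, against 0.07 FPKM in GC, and was not called (0.68, limma adjusted p = 0.0507). Its 2 highest values, 1.13 and 1.23 FPKM, were those of lines 2 and 10, which also had the 2 highest values of Cd34 (6.09 and 5.22 FPKM). Cdh5 and Emcn ran the other way, at most 0.12 and 0.10 FPKM in the lines, against 0.42 and 0.25 FPKM in GC, and were below the filter.

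**Figure D5:**
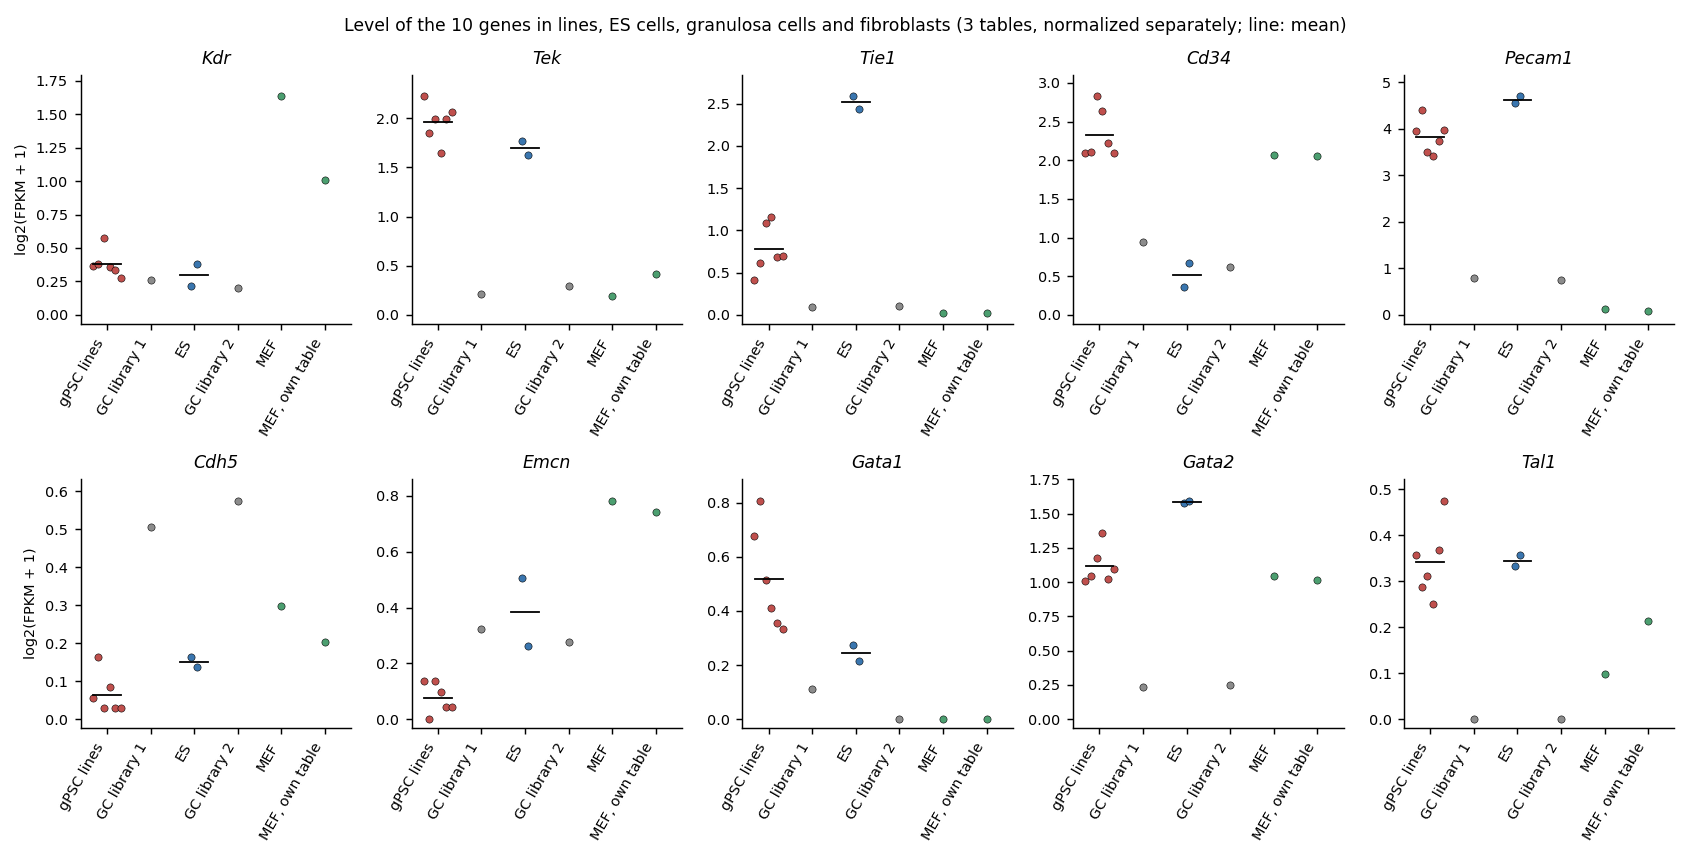
FPKM of each gene (vertical axis, log2(FPKM + 1) scale) in the 6 gPSC lines and GC of the lines table and in ES, GC and MEF of 2 further tables, each normalized separately; points are libraries and lines are group means. Pecam1 and Tek stand above GC in every line and in both ES libraries, and MEF show Cd34, Kdr and Gata2.

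In the table of ES, GC and MEF, which has 1 GC and 1 MEF library and no test here, Pecam1 had 22.6 and 24.9 FPKM in ES, 0.68 FPKM in GC and 0.09 FPKM in MEF. Tie1 had 5.0 and 4.43 FPKM in ES, 0.08 FPKM in GC and 0.02 FPKM in MEF, and Tek had 2.42 and 2.09 FPKM in ES, 0.23 FPKM in GC and 0.14 FPKM in MEF. Pecam1, Tie1 and Tek were thus higher in both ES libraries than in either somatic library. MEF had the highest levels in that table of Cd34 (3.19 FPKM, against 0.28 and 0.60 in ES), Kdr (2.10 FPKM, against 0.16 and 0.30 in ES) and Emcn (0.72 FPKM, against 0.42 and 0.20 in ES). A separate fibroblast table gave Cd34 3.15 FPKM, Kdr 1.02 FPKM and Gata2 1.03 FPKM in its MEF library, with Gata1 at 0. GC had 0.53 FPKM of Cd34, 0.49 FPKM of Cdh5 and at most 0.23 FPKM of Tie1, Tek, Gata2, Kdr and Emcn, with Gata1 and Tal1 at 0.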

How the data were processed

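The authors deposited 5 tables of FPKM per gene, per the file headers and labels. Per the submitters' processing notes, HISAT2, Bowtie2, RSEM, R 3.4.2 and DESeq2 were named, with no role or order. Each table was analysed alone, since their normalizations differ. ESC and MEF columns could be matched to their group and not to a single sample. The MEF columns of 2 tables are headed alike, and whether they are separate libraries cannot be told from the headers. The 28D+CA columns are headed CS in place of CA in their table. The 10 genes and the gene lists were chosen with earlier results of these data known. Genes named from a list are the up to 3 called genes with the largest difference.

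Genes with at least 1 FPKM in 2 (reprogramming), 1 (lines) or 3 (induction) libraries were tested on log2(FPKM + 1) with limma 3.58.1 (R 4.3.3), group as the term, a trended prior and two-sided p-values adjusted by Benjamini-Hochberg over all genes tested. This scale understates changes of low genes. Whole reads were recovered for 17469 of 17600 induction genes (99.3%, tolerance 0.001 reads) and used for an alternative fit with voom and for limits of 3 reads, which cover counting error only. In the reprogramming table, same-numbered libraries deviated together (Pearson 0.136 to 0.338 in 6 of 6 pairs, which are 3 distinct values since the libraries of a group of 2 deviate by opposite amounts). With so few values and no label that states a pairing, whether the numbers pair the samples cannot be told. The main fit had no block, and a block for the number left 2 calls in 28D against 16D and 2 in 28D+CA against 28D. Positions are from GRCm38 (GENCODE M21). Alternatives were another pseudocount, other scalings, fits with no filter, no minimum difference or no trend, fits of only the groups compared, a replicate block and leaving out each library.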

Additional observations from a re-analysis of the deposited data

Results flagged for a closer look

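Kdr in the gPSC lines was 0.49 FPKM in line 2, against 0.21 to 0.30 FPKM in the other lines, a gap to the next line of 0.679 of the whole range. Chance sets a sample apart in this way in about 1 of 20 groups. The level is below the 1 FPKM filter, and GC had 0.20 FPKM.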

How the results depend on the processing

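No called difference reversed under any alternative. Of 466 values for the 55 called differences under other settings, 442 kept the call, and of 361 with 1 library left out, 323 did. The 466 and the 442 include 1 value for each of the 55 with no minimum difference, a setting that keeps every call by construction. Of the 70 uncalled differences, 34 of 604 values under other settings and 5 of 519 with 1 library left out became calls. Counts of the 10 genes called that moved most, relative to the main fit in brackets, were as follows. In 28D against 16D (2), 1 with no filter, 1 under median-ratio scaling, 1 with the compared groups alone and 0 under quantile normalization. In 28D+CA against 28D (2), 0 with a pseudocount of 0.1, 0 with no filter, 1 under median-ratio scaling and 1 with no trend. In gPSC lines against GC (3), 5 with a pseudocount of 0.1. In gPSC4-PGCLC against ESC-PGCLC (1), 0 with the compared groups alone and 0 with voom. Relatively smaller moves in other comparisons are not all listed. Among them, Tie1 and Cdh5 were lost in gPSC4-PGCLC against gPSC4-EpiLC under median-ratio scaling and under quantile normalization. Tek, Tie1 and Cdh5 were gained in ESC-PGCLC against ESC with a pseudocount of 0.1 and with voom. Leaving out 1 library gave 0 to 2 in 28D against 16D, 0 to 1 in 28D+CA against 28D, 3 to 3 in gPSC lines against GC, 6 to 8 in ESC-PGCLC against ESC-EpiLC, 5 to 7 in gPSC4-PGCLC against gPSC4-EpiLC, 5 to 8 in ESC-PGCLC against ESC, 5 to 7 in gPSC4-PGCLC against gPSC4, 2 to 4 in ESC-EpiLC against ESC, 3 to 3 in gPSC4-EpiLC against gPSC4, 0 to 1 in gPSC4-PGCLC against ESC-PGCLC, 0 to 0 in the step between origins and in E12.5PGC against PGCLC, 6 to 7 in E12.5PGC against EpiLC and 5 to 6 in E12.5PGC against stem cells. The cause of these changes was not tested.

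Over all genes, dropping the minimum difference moved the count to 2985 (708 with it) in 28D against 16D, 957 (272) in 28D+CA against 28D, 9988 (5444) in gPSC lines against GC, 8072 (4122) in ESC-PGCLC against ESC-EpiLC, 8199 (4170) in gPSC4-PGCLC against gPSC4-EpiLC, 8385 (4303) in ESC-PGCLC against ESC, 8066 (4051) in gPSC4-PGCLC against gPSC4, 6426 (2947) in ESC-EpiLC against ESC, 6300 (2874) in gPSC4-EpiLC against gPSC4, 84 (44) in gPSC4-PGCLC against ESC-PGCLC, 153 (62) in E12.5PGC against PGCLC, 8999 (4263) in E12.5PGC against EpiLC and 8962 (4371) in E12.5PGC against stem cells. A pseudocount of 0.1 gave 1125 in 28D against 16D. In gPSC4-PGCLC against ESC-PGCLC the count was 28 with no trend, 0 with the compared groups alone, 88 with the replicate block and 22 with voom. In the step between origins (12) it was 4 with the compared groups alone and 1 with voom, and in E12.5PGC against PGCLC it was 7 with the compared groups alone. Leaving out 1 library moved some whole-table counts further. It was 1147 in 28D against 16D without 16D library 2. It was 7 and 25 in 28D+CA against 28D without 28D+CA library 1 or 2, and 18 and 11 without 28D library 1 or 2. It was 117, 29 and 157 in gPSC4-PGCLC against ESC-PGCLC without ESC-PGCLC library 1 or 3 or gPSC4-PGCLC library 3. It was 20, 21 and 43 in the step between origins without ESC-PGCLC library 1 or 2 or gPSC4-PGCLC library 3.

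In the induction table, same-numbered libraries had deviations correlated at -0.028 to 0.172 (median 0.042, 45 pairs). Libraries of different numbers had -0.126 to 0.049 (median -0.018, 90 pairs). No label states a pairing, so whether the numbers pair the samples cannot be told. The block left the counts of the 10 genes as they were. No paired analysis was possible because the ESC columns could be matched to their group and not to a numbered sample, for ESC-PGCLC against ESC, ESC-EpiLC against ESC and E12.5PGC against stem cells. Depth limits Tie1, Cdh5, Emcn, Gata1 and Tal1, which rest on 205 reads or fewer per group.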

Other observations

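Stem cell levels of Tie1, Cd34 and Pecam1 were given by more than 1 table. The tables were normalized separately, so the values stand side by side with no comparison. The ESC of the induction table had no Tie1 read in 3 libraries, and Cd34 at 16.4, 17.4 and 22.2 FPKM. ES of the other table, also a female line, had Tie1 at 5.0 and 4.43 FPKM and Cd34 at 0.28 and 0.60 FPKM. For line 4 of the gPSC, Cd34 was at 17.3, 14.8 and 12.04 FPKM in the gPSC4 libraries of the induction table and at 3.25 FPKM in the lines table, and Pecam1 at 51.3, 48.1 and 41.7 FPKM and at 14.5 FPKM.

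The white cell list was highest in stem cells through Laptm5, a lysosomal membrane protein, a gene chosen after its values were seen. It averaged 33.1 FPKM in ESC-EpiLC, against 620 FPKM in ESC and 581 FPKM in gPSC4.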
